A study of Mus musculus with 23 samples.

Results

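The CCR4-NOT deadenylation complex and its partner complex PAN2-PAN3 were followed here in mouse lung RNA-Seq through 10 genes chosen by symbol: Cnot1, Cnot2, Cnot3, Cnot4, Cnot6, Cnot6l, Cnot7, Cnot8, Pan2 and Pan3. All 10 were among the 35322 genes listed, and all 10 were among the 16795 genes tested, which had at least 0.5 RPM (reads scaled to the total of a library) in at least 4 of the 23 libraries. The study asked how maternal exposure to fine particulate air pollution alters the lung response of the offspring to an allergen. Every library came from frozen right lung of a Balb/c offspring taken after lung function testing, female and aged 13 weeks according to the methods of the study. The 7 Sham and 7 PM offspring, of mothers given saline or PM2.5, were given saline (PBS in the labels) in place of the allergen. The 5 Sham-OVA and 4 PM-OVA offspring were sensitised to ovalbumin (OVA) with an aluminium adjuvant and challenged with nebulised OVA, a model of allergic airway disease (AAD). Inbred animals and 1 allergen limit what the groups can model, and polyA RNA of lung homogenate was sequenced, so fewer cells of a type and less RNA per cell cannot be told apart. The labels do not give the dam or litter of an offspring, so p-values measure the spread between samples that may include littermates.

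Deadenylation, the shortening of the poly(A) tail, is usually the first step in the decay of a eukaryotic mRNA and sets how long many cytokine and growth factor transcripts last. PAN2-PAN3 is thought to trim long tails, whereas CCR4-NOT removes the rest and is drawn to particular mRNAs by RNA-binding proteins and by the microRNA machinery. Cnot1 is the scaffold on which the other subunits assemble, Cnot2 and Cnot3 form the NOT module, Cnot4 is a RING-type ubiquitin ligase, Cnot6 and Cnot6l are alternative CCR4-type nucleases, and Cnot7 and Cnot8 are alternative CAF1-type nucleases. Pan2 is a nuclease and Pan3 its RNA-binding adaptor.

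Some libraries stood apart before any comparison was made. The 14 saline libraries held 13089691 to 17393579 reads on genes and 6 OVA libraries 10345173 to 12355561, but there were 2298645 in Sham-OVA 3, 5922469 in PM-OVA 3 and 4324326 in PM-OVA 4 (numbers are the replicates of the labels). Sham 1 went against the female sex, with 0.289 RPM of Xist and 222 RPM summed over 4 Y-linked genes, where the other 22 libraries had 174 to 1620 RPM of Xist and at most 0.132 RPM of the Y-linked genes. Relative to the saline mean, log2 values fell with transcript length in all 9 OVA libraries, with Spearman's rho across 14782 protein-coding genes of -0.449 to -0.326 in Sham-OVA and -0.465 to -0.348 in PM-OVA, against -0.427 to 0.358 in Sham and -0.121 to 0.281 in PM. Lung markers were present in every group: 8 alveolar type 2 markers summed to 14640 to 32970 RPM in saline and 25430 to 44980 RPM in OVA libraries.

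The promoters of Cnot3 and Cnot8 are shown because these members moved in opposite directions after OVA challenge. Each window runs from 250 bases before to 50 bases after a RefSeq start site nearest the annotated gene start (GRCm38.p6, plus strand, 5′ to 3′), and capitals mark 3 motifs on either strand: the CCAAT box (CCAAT), the GC box (GGGCGG) and the core bound by ETS factors (CGGAAG).
Cnot3, chr7:3645019-3645318: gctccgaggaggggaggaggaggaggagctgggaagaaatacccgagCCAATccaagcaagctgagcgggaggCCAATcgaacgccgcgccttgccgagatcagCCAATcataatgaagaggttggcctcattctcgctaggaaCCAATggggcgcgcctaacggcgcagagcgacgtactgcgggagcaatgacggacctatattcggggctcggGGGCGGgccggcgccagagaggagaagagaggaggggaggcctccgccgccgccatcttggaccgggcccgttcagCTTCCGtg
Cnot8, chr11:58103979-58104278: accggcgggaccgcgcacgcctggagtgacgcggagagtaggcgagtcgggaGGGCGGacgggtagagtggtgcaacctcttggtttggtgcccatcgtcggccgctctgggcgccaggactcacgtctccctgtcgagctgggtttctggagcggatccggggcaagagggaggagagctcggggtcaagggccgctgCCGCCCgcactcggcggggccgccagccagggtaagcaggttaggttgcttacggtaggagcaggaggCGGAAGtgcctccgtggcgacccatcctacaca
The Cnot3 window held CCAAT 4 times and the Cnot8 window 0 times. CCAAT or its complement was found in 3 of the 8 member windows and in 37.4% of all 32851 promoter windows of the same length. Among other members that fell, the windows of Cnot2, Cnot6l and Pan3 held it 0 times, that of Cnot6 1 time and that of Pan2 3 times. GGGCGG was found 1 time in Cnot3 and 2 times in Cnot8, in 6 of the 8 member windows listed and in 35.7% of all windows. CGGAAG was found in 3 of the 8 member windows, these 2 included, and in 16.9% of all. No member window held TATAAA, which 13.6% of all windows held, and TGACGT was found in 1 member window and 7.51% of all. The 8 member windows had 11 to 49 CpG dinucleotides, with a median of 29.0 against 7.0 over all windows. Matches of letters are a description and not binding sites.

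In saline lungs the members differed widely in level. Per kilobase of the longest annotated transcript, mean Sham levels were highest for Cnot6, at 28.1 ± 2.36 RPM per kilobase (SD, n = 7), followed by Cnot7 at 26.1 ± 2.72, Cnot8 at 22.98 ± 3.46, Cnot2 at 21.9 ± 2.49 and Pan3 at 21.9 ± 3.94. Cnot6l at 14.3 ± 0.871, Pan2 at 11.5 ± 2.68 and Cnot4 at 9.7 ± 0.916 were intermediate, and the scaffold Cnot1 at 5.01 ± 1.1 and Cnot3 at 4.48 ± 0.762 were lowest. Neighbours in this order differed by less than the sum of their SDs, except Pan3 from Cnot6l and Cnot4 from Cnot1. Whether reads were counted over exons or whole genes is not given in the sources used here. The order was not corrected for exon number or for reads across exon borders, so it may differ from the order of mRNA levels.

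OVA challenge was accompanied by lower mRNA levels of most of the machinery in both maternal groups. In limma fits of log2(RPM + 0.5) across all genes with Benjamini-Hochberg adjustment, 8 of the 10 members fell and 1 rose in Sham-OVA against Sham at an adjusted p under 0.05, where 47.5% of all genes tested fell and 20.6% rose. The counts were again 8 lower and 1 higher in PM-OVA against PM, where 45.2% of all genes fell and 20.1% rose. Cnot8 was the member that rose and Cnot4 the one that did not pass in both comparisons. The median log2 fold change of the 10 members was -1.02 between Sham-OVA and Sham, where that of all genes tested was -0.48. Between PM-OVA and PM it was -1.01, where that of all genes was -0.43. Part of this shift depended on the scaling: with TMM scaling the medians of the members were -0.57 in both comparisons and those of all genes -0.10 and -0.06, and 5940 genes fell and 5265 rose in Sham-OVA, in place of 7978 and 3453, while 5567 fell and 5261 rose in PM-OVA, in place of 7589 and 3379. With TMM scaling 7 of the members were lower and 1 higher in Sham-OVA. With the trends with transcript length and GC content given below removed, the medians of the members were near those of all genes. They were -0.52 in Sham-OVA and -0.42 in PM-OVA, where those of all genes were -0.44 and -0.40. With Sham 1 left out 8 members were lower and 1 higher in Sham-OVA, where 7780 of the 16795 genes were lower and 3259 higher.

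**Figure D1:**
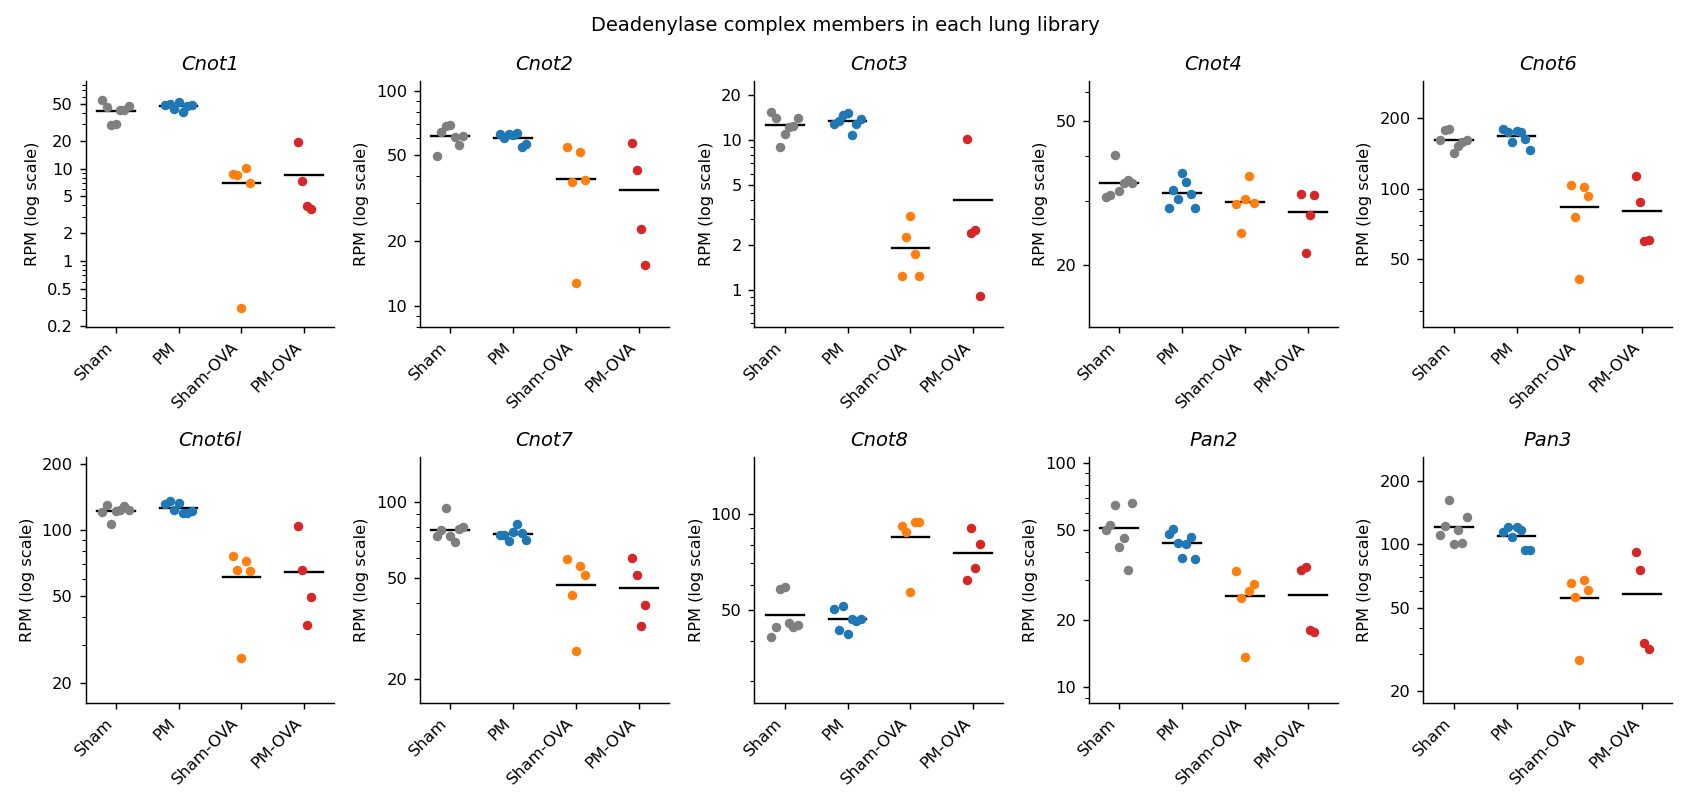
RPM of each member (log scale, one panel per gene) in every library of the 4 groups, with the group mean as a bar. Cnot8 is the panel in which all OVA libraries but Sham-OVA 3 lie above the saline ones, Cnot4 shows little separation, and Sham-OVA 3 is the low orange point of 8 members.

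Values of 7 members did not overlap between Sham-OVA and Sham, all lower, against 35.0% of all genes tested, and 0 lay wholly higher, against 13.2%. Between PM-OVA and PM, 7 members lay wholly lower, against 28.6% of all genes, and 1 wholly higher, against 13.3%. Under a stricter rule, which asks for a log2 fold change beyond 1 in size together with an adjusted p below 0.000001, 1 of the 10 members passed in Sham-OVA against Sham by limma, Cnot3, where 2.53% of genes passed as lower and 1.98% as higher. In PM-OVA against PM 0 members passed that rule in either direction by limma, where 0.0238% of genes passed as lower and 0.262% as higher. In that comparison 9 of the 10 had an unadjusted p under 0.05 by limma, as did 11559 of the 16795 genes tested. By edgeR on reads recovered from the values 9 passed an adjusted p under 0.05, where 39.4% of all genes were lower and 20.4% higher. By DESeq2 on the same reads 9 passed, where 33.3% were lower and 31.7% higher. The stricter rule depended on the tool and on single libraries. By DESeq2 it was passed by 3 members in Sham-OVA (Cnot1, Cnot3 and Cnot8) and by 2 in PM-OVA (Cnot1 and Cnot8), and by edgeR by 1 (Cnot3) and 0. By limma, leaving out 1 library gave 0 to 2 members in Sham-OVA, with Cnot1 and Cnot3 passing without Sham-OVA 3, and 0 to 1 in PM-OVA, with Cnot1 passing without PM-OVA 1. The share of all genes that passed the stricter rule was computed for the main limma fit only. The counts by other tools and without single libraries thus cannot be set beside such a share.

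The scaffold Cnot1 and the NOT module gene Cnot3 had the largest decreases of the 10 members, and their order depended on the setting. In saline lungs it ranged from 29.6 to 55.1 RPM in Sham (median 43.3) and from 41.1 to 53.0 RPM in PM (median 48.3). In Sham-OVA 1 to 5 the values were 8.76, 8.58, 0.311, 10.04 and 7.01 RPM. In PM-OVA 1 to 4 they were 19.5, 7.42, 3.98 and 3.63 RPM. Every OVA library was thus below every saline library, PM-OVA 1 being the nearest. The log2 fold change was -2.90 ± 0.506 (SE; adjusted p = 1.56e-04) for Sham-OVA and -2.70 ± 0.339 (adjusted p = 7.16e-05) for PM-OVA, each relative to its saline group. The value of Sham-OVA 3 rested on 1 read, whose exact Poisson interval of 0.00787 to 1.73 RPM covers counting error only, and without that library the change of Cnot1 from Sham was -2.20 (adjusted p = 6.19e-09), smaller than that of Cnot3 at -2.64 (adjusted p = 2.94e-09). Cnot3 also fell more than Cnot1 in Sham-OVA by edgeR (-2.82 and -2.51) and by DESeq2 (-2.49 and -2.27). Only 2.08% of genes tested had a lower fold change than Cnot1 in Sham-OVA and 2.2% in PM-OVA. Cnot1 lies at chr8:95719451-95807464 on the minus strand (GRCm38) with 49 exons in its longest transcript, more than 98.9% of protein-coding genes tested. It shares a stretch of 903 bases at 99.8% identity with the processed pseudogene Gm6158, and an antisense transcript, 4930513N10Rik, overlaps it. Reads of such partners may have been split or mixed, because whether counting used strand is not given in the sources used here.

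Both NOT module genes fell, with a larger change of Cnot3 than of Cnot2. Cnot3 ranged from 9.09 to 15.5 RPM in Sham (median 12.5) and from 10.9 to 15.1 RPM in PM (median 13.4). Sham-OVA 1 to 5 had 1.25, 2.26, 3.11, 1.75 and 1.24 RPM, and PM-OVA 1 to 4 had 10.1, 2.4, 2.52 and 0.908 RPM. The groups did not overlap in either comparison, although PM-OVA 1, with 151 reads, came close to the lowest PM library, whereas the other OVA libraries held 5 to 31 reads. Its log2 fold change was -2.48 ± 0.221 (adjusted p = 3.95e-07) in Sham-OVA and -2.03 ± 0.397 (adjusted p = 8.52e-04) in PM-OVA. Cnot3 lies at chr7:3645268-3661109 on the plus strand, overlaps Leng1 on the opposite strand by 1012 bases, and shares 1116 bases at 98.8% identity with the processed pseudogene Gm9207.

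Cnot2 ranged from 49.8 to 69.3 RPM in Sham (median 61.5) and from 54.6 to 63.7 RPM in PM (median 62.1). Sham-OVA 1 to 5 had 54.7, 37.5, 12.7, 51.7 and 38.3 RPM and PM-OVA 1 to 4 had 57.4, 42.8, 22.7 and 15.4 RPM. The groups overlapped, since Sham-OVA 1 and 4 and PM-OVA 1 lay within the saline range, and the 3 lowest values belonged to the shallow libraries. The log2 fold change of Cnot2 was -0.79 ± 0.28 (adjusted p = 0.0204) in Sham-OVA and -0.97 ± 0.276 (adjusted p = 0.00802) in PM-OVA. With the 3 shallow libraries left out, a choice made after seeing the data, the changes of Cnot2 were -0.44 (adjusted p = 0.00579) and -0.28 (adjusted p = 0.0674). The call in Sham-OVA was also lost with TMM scaling (adjusted p = 0.121) and with DESeq2 (adjusted p = 0.0663).

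Cnot4, the ubiquitin ligase that is not a stable subunit of the complex in mammals, was the member with the least movement. It ranged from 30.7 to 40.2 RPM in Sham, 28.7 to 35.9 in PM, 24.4 to 35.1 in Sham-OVA and 21.6 to 31.4 in PM-OVA, so that OVA and saline libraries overlapped. The log2 fold change was -0.18 with a 95% interval of -0.46 to 0.10 (adjusted p = 0.242) in Sham-OVA and -0.19 with an interval of -0.48 to 0.11 (adjusted p = 0.246) in PM-OVA. Its sign depended on the scaling, as the value in Sham-OVA was 0.17 after quantile normalisation, 0.19 with median-of-ratios scaling and 0.27 with TMM scaling, with no call in any of them.

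The CCR4-type nucleases Cnot6 and Cnot6l were lower by nearly the same factor. Cnot6 ranged from 141 to 179 RPM in Sham and from 147 to 180 RPM in PM, against 41.0 to 104 RPM in Sham-OVA and 59.5 to 113 RPM in PM-OVA. Cnot6l ranged from 107 to 130 RPM in Sham and from 119 to 135 RPM in PM, against 26.1 to 76.3 RPM in Sham-OVA and 36.8 to 104 RPM in PM-OVA. No OVA library of either gene reached the saline range, and PM-OVA 1 was the highest OVA library for both. The changes of Cnot6 were -1.02 ± 0.199 (adjusted p = 3.82e-04) in Sham-OVA and -1.11 ± 0.17 (adjusted p = 2.24e-04) in PM-OVA. Those of Cnot6l were -1.08 ± 0.219 (adjusted p = 5.19e-04) and -1.08 ± 0.216 (adjusted p = 9.84e-04).

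The CAF1-type nucleases Cnot7 and Cnot8 moved in opposite directions. Cnot7 ranged from 69.4 to 94.5 RPM in Sham (median 77.3) and from 70.3 to 81.6 RPM in PM (median 74.4). Sham-OVA 1 to 5 had 59.4, 43.1, 25.8, 56.1 and 51.6 RPM and PM-OVA 1 to 4 had 60.3, 51.7, 32.5 and 39.4 RPM. All OVA libraries were below all saline libraries, with a log2 fold change of -0.77 ± 0.185 (adjusted p = 0.00197) in Sham-OVA and -0.73 ± 0.155 (adjusted p = 0.00139) in PM-OVA. With TMM scaling the changes of Cnot7 were smaller, -0.32 (adjusted p = 0.0233) and -0.29 (adjusted p = 0.0242). The annotated span of Cnot7 (chr8:40492540-40515847, minus strand) overlaps Vps37a by 4065 bases and Zdhhc2 by 17729 bases on the opposite strand.

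Cnot8 ranged from 41.2 to 59.1 RPM in Sham (median 44.8) and from 42.2 to 51.7 RPM in PM (median 46.9). Sham-OVA 1 to 5 had 91.7, 87.5, 56.9, 94.1 and 94.2 RPM and PM-OVA 1 to 4 had 62.4, 90.1, 67.8 and 80.6 RPM. Of the 5 Sham-OVA libraries 4 were above all Sham libraries, with Sham-OVA 3 within their range, and all 4 PM-OVA libraries were above all PM libraries. The log2 fold change of Cnot8 was 0.80 ± 0.157 (adjusted p = 4.34e-04) in Sham-OVA and 0.67 ± 0.128 (adjusted p = 7.80e-04) in PM-OVA, and 14.3% and 15.9% of genes tested had a higher one. Over the alternatives the change of Cnot8 lay between 0.65 and 1.24 in Sham-OVA and between 0.53 and 1.11 in PM-OVA, past an adjusted p of 0.05 in each. Cnot8 (chr11:58104153-58118594, plus strand) shares 760 bases at 97.8% identity with the processed pseudogene Gm18860.

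**Figure D2:**
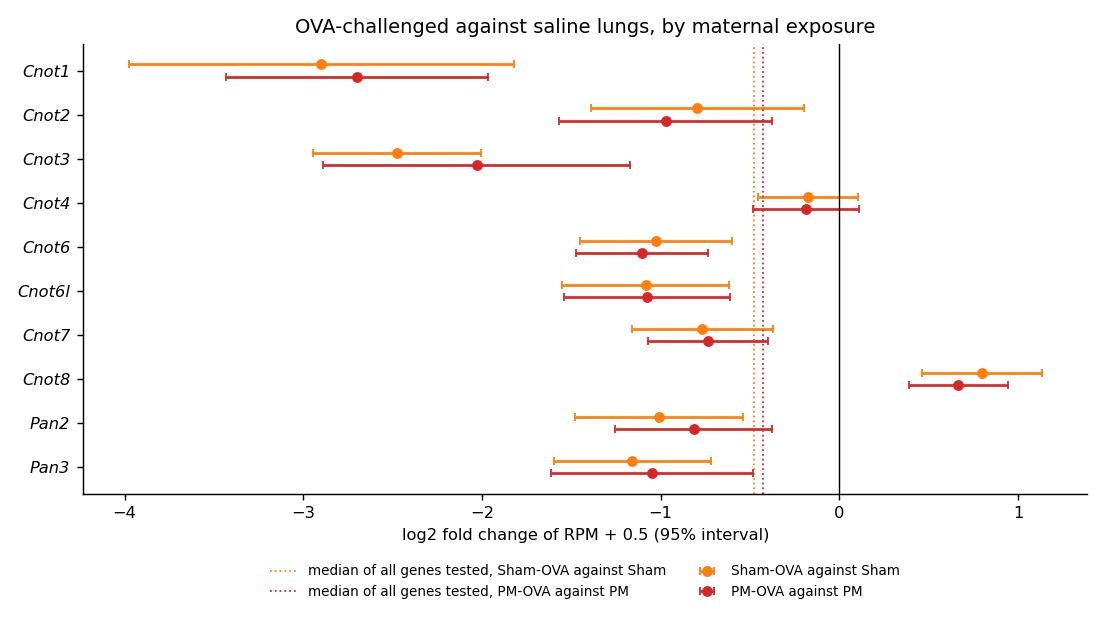
Log2 fold change of each member with its 95% interval in Sham-OVA against Sham (orange) and PM-OVA against PM (red), with dotted lines at the medians of all genes tested, -0.48 and -0.43. The intervals of the 2 comparisons overlap for every member, and only Cnot8 lies to the right of 0 with its whole interval.

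PAN2-PAN3 was lower as a pair. Pan2 ranged from 33.5 to 66.5 RPM in Sham and 37.2 to 50.7 RPM in PM, against 13.7 to 32.9 RPM in Sham-OVA and 17.6 to 34.5 RPM in PM-OVA. Pan3 ranged from 101 to 163 RPM in Sham and 93.3 to 121 RPM in PM, against 28.3 to 67.9 RPM in Sham-OVA and 32.0 to 92.2 RPM in PM-OVA. Neither gene overlapped between Sham-OVA and Sham or between PM-OVA and PM, but for Pan2 Sham-OVA 1 lay just under the lowest Sham library and PM-OVA 2, at 34.5 RPM, above it. The changes of Pan2 were -1.01 ± 0.221 (adjusted p = 9.69e-04) in Sham-OVA and -0.82 ± 0.203 (adjusted p = 0.00372) in PM-OVA. Those of Pan3 were -1.16 ± 0.206 (adjusted p = 1.81e-04) and -1.05 ± 0.261 (adjusted p = 0.00375). In PM-OVA the size rested on the shallow libraries: without PM-OVA 3 and 4 the changes were -0.36 (adjusted p = 0.0393) for Pan2, -0.39 (adjusted p = 0.0297) for Pan3, -1.31 (adjusted p = 0.00906) for Cnot3 and -1.93 (adjusted p = 1.82e-04) for Cnot1, and 7 members were lower and 1 higher, where 31.3% of all genes were lower and 19.7% higher.

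Ratios of related members within a library, which do not depend on its scaling, separated one pair from the others. Cnot7 exceeded Cnot8 in RPM, which is not corrected for length, in all 14 saline libraries, by 1.24 to 1.78 times in Sham and 1.36 to 1.8 times in PM. Per kilobase of transcript Cnot7 was above Cnot8 in 12 of the 14 saline libraries and in 0 of the 9 OVA libraries. In RPM the order was turned in all OVA libraries, with ratios of 0.454 to 0.648 in Sham-OVA and 0.479 to 0.967 in PM-OVA. The log2 ratio of Cnot7 to Cnot8 was -0.88 ± 0.207 (SD, n = 5) in Sham-OVA and 0.70 ± 0.191 (n = 7) in Sham, a difference of -1.58 (two-sided exact permutation p = 0.00126, adjusted over 12 tests 0.0152). In PM-OVA it was -0.74 ± 0.472 (n = 4) and in PM 0.68 ± 0.148 (n = 7), a difference of -1.41 (exact permutation p = 0.00303, adjusted 0.0182), and both p-values are the smallest these group sizes allow. The ratios were not corrected for the trends with transcript length and GC content given below. With those trends removed the changes in Sham-OVA were -0.44 for Cnot7 and 0.65 for Cnot8, in place of -0.77 and 0.80. Cnot6 to Cnot6l ratios were 1.16 to 1.67 in Sham and 1.15 to 1.57 in Sham-OVA, with a log2 difference of 0.06 (exact permutation adjusted p = 0.874), and 1.2 to 1.47 in PM and 1.09 to 1.62 in PM-OVA, with a difference of -0.03 (exact permutation adjusted p = 0.874). Pan2 to Pan3 ratios were 0.331 to 0.494 in Sham and 0.396 to 0.504 in Sham-OVA, with a log2 difference of 0.14 (exact permutation adjusted p = 0.527), and the difference between PM-OVA and PM was 0.23 (exact permutation adjusted p = 0.527). These p-values do not show that the Cnot6 to Cnot6l or Pan2 to Pan3 ratios stayed the same.

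**Figure D3:**
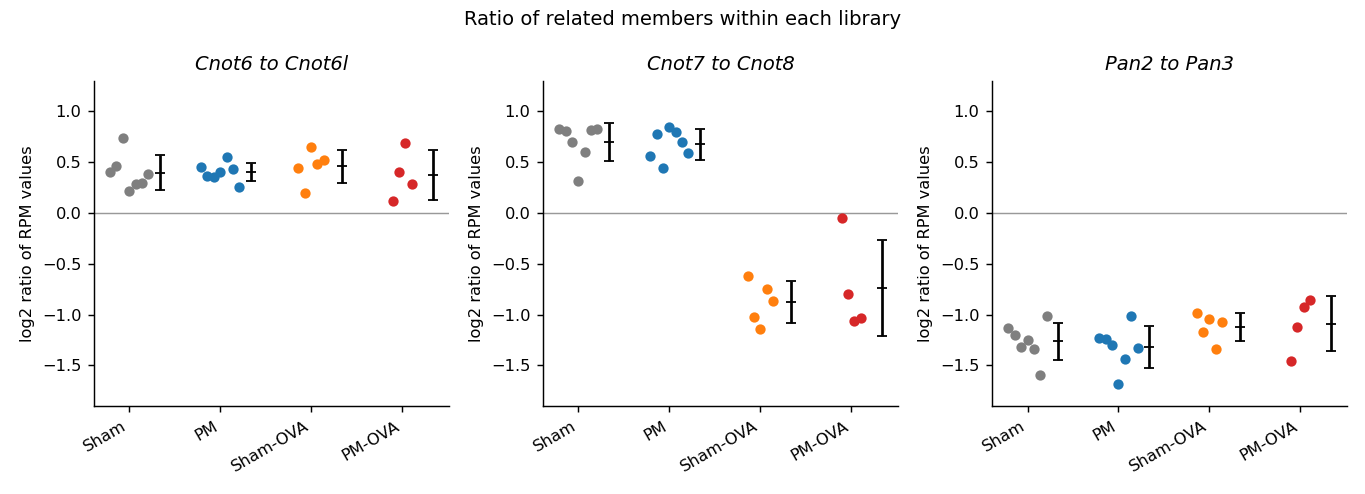
Log2 ratio of the RPM values of Cnot6 to Cnot6l, Cnot7 to Cnot8 and Pan2 to Pan3 in each library (points), with mean and SD beside each group. In the middle panel all saline libraries lie above 0 and all OVA libraries below it, with PM-OVA 1 nearest to 0, and in the other panels the groups overlap.

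Transcript length moved with the response across the whole table and was therefore set beside each member. The log2 fold change fell with the length of the longest transcript, with Spearman's rho of -0.40 in Sham-OVA and -0.42 in PM-OVA across 14782 protein-coding genes, and rose with GC content, with rho of 0.30 and 0.35. Genes of the shortest of 20 length bins (median 774 bases) had a median change of 0.49 in Sham-OVA, and those of the longest (median 9988 bases) -1.25. Cnot1, with 8390 bases, lay below the quartiles of its bin in both comparisons, as did Cnot3, with 2822 bases. Only 4.19% of the genes in its bin in Sham-OVA were lower than Cnot1 and 3.38% lower than Cnot3. Cnot8, with 2099 bases, lay above the quartiles of its bin in both, and 79.3% of the bin was lower in Sham-OVA. Cnot6 (5736 bases), Cnot6l (8564), Cnot7 (2982), Pan2 (4445), Pan3 (5541) and Cnot4 (3473) lay between the quartiles in both, and Cnot2 (2800) in Sham-OVA but not in PM-OVA, where it lay below.

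When the trends with length and GC were removed from each library before the fit, 6 members were lower and 1 higher in Sham-OVA, where 46.0% of all genes were lower and 18.1% higher. In PM-OVA 5 were lower and 1 higher, where 44.1% of all genes were lower and 17.2% higher, so that the members' share was near that of all genes. Cnot6l was then at -0.02 (adjusted p = 0.934) in Sham-OVA and 0.01 (adjusted p = 0.94) in PM-OVA. Cnot6 was at -0.21 (adjusted p = 0.23) and -0.26 (adjusted p = 0.0591), and Pan3 in PM-OVA at -0.46 (adjusted p = 0.0695). Cnot1 was at -2.12 (adjusted p = 0.00109) and -1.902 (adjusted p = 1.73e-04), and Cnot3 at -2.80 (adjusted p = 6.26e-08) and -2.40 (adjusted p = 8.53e-04). Cnot8 stood at 0.65 (adjusted p = 8.19e-04) and 0.53 (adjusted p = 0.00219). Thus Cnot6 and Cnot6l were no longer called in either comparison once the trends were taken out, whereas Cnot1, Cnot3 and Cnot8 still were. Cnot2, Cnot7 and Pan2 were also still called as lower in both. Pan3 was still called in Sham-OVA, at -0.59 (adjusted p = 0.0116).

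**Figure D4:**
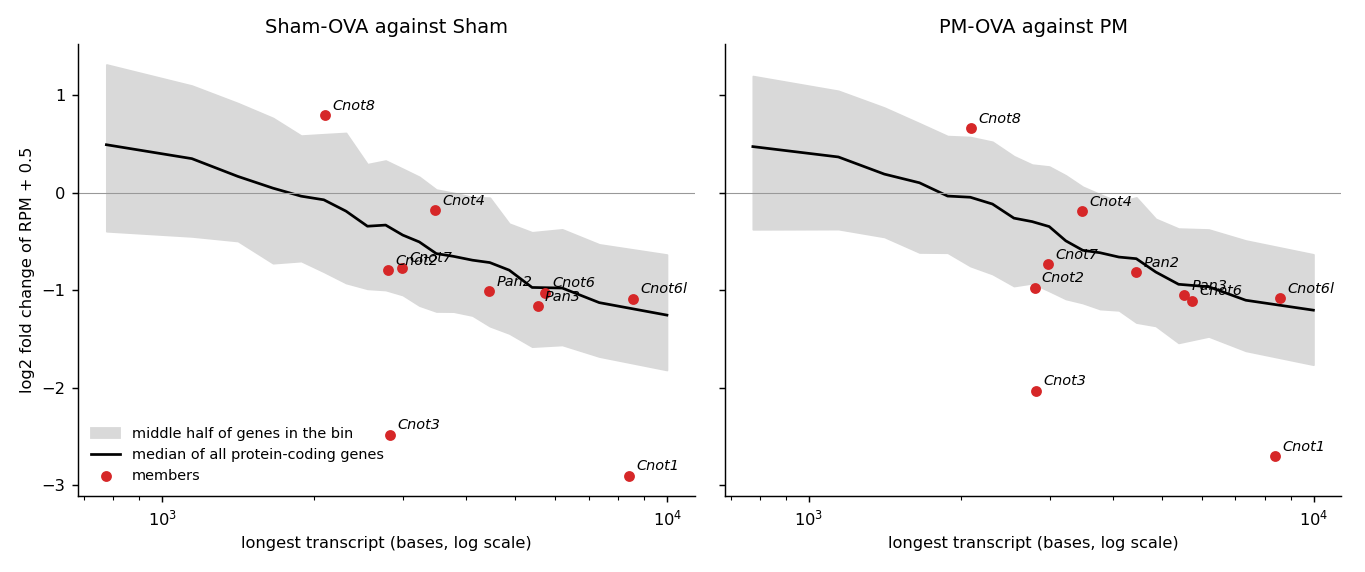
Log2 fold change against the length of the longest transcript (log scale) in both OVA comparisons, with the median (line) and quartile range (grey) of all protein-coding genes in 20 bins and the 10 members in red. Cnot1 and Cnot3 lie below the grey band and Cnot8 above it in both panels, while Cnot6, Cnot6l and Pan3 follow the line.

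Cell markers moved with the same contrast, and their part in the members' changes was not tested. Of 8 plasma cell markers 6 were higher and 1 lower in each comparison, and their sum rose from 379 to 579 RPM in Sham to 7267 to 12720 RPM in Sham-OVA, and from 426 to 566 RPM in PM to 6849 to 11280 RPM in PM-OVA. Of 8 interstitial macrophage markers 6 were higher in Sham-OVA and 5 in PM-OVA, summing to 893 to 1550 RPM in Sham, 1059 to 1659 in PM, 3173 to 4890 in Sham-OVA and 3079 to 3619 in PM-OVA. Of 8 alveolar type 1 markers 6 were lower in each comparison and 1 was higher in Sham-OVA, summing to 6674 to 9922 RPM in Sham, 8429 to 9003 in PM, 3934 to 5594 in Sham-OVA and 4839 to 5851 in PM-OVA. Of 7 eosinophil markers tested 5 were higher and 1 lower in each. In each comparison 4 of 8 fibroblast markers were lower and 0 higher, and 4 of 8 endothelial markers lower and 1 higher. Alveolar macrophage markers (7 tested) had 4 lower and 2 higher in each. T cell markers (8) had 3 higher and 2 lower in Sham-OVA, and 2 higher and 2 lower in PM-OVA. Among 8 alveolar type 2 markers 3 were higher and 2 lower in each, and among 8 cardiac muscle markers 0 were higher and 3 lower. No marker of these lists was at 0 in all libraries. The share of reads on genes was also lower in OVA libraries, 71.4% to 85.7%, than in saline ones, 83.0% to 92.4%.

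Maternal PM2.5 exposure was tested without and with challenge. In PM against Sham 0 of the 10 members were called by limma, edgeR or DESeq2, none of the 10 reached an unadjusted p below 0.05 (0 members), and the share of all genes called was 0%, with 731 of 16795 at an unadjusted p below 0.05. Cnot1 had the largest difference, 0.20 on the log2 scale (adjusted p = 0.898), and the 95% intervals of the 10 members lay between -0.47 and 0.46. In PM-OVA against Sham-OVA 0 members were called by these tools, 0 had an unadjusted p under 0.05, and 0% of all genes were called by limma and 1 gene by DESeq2, with 313 genes at an unadjusted p under 0.05. Cnot3 differed most, by 0.54 (adjusted p = 1.0), with an interval of -0.66 to 1.74, but this rested on PM-OVA 1, without which the difference was -0.011. Cnot1 had the widest interval, -1.41 to 2.21. Differences of more than 2 times in either direction in Cnot1 were thus within the interval, so that the comparison cannot show that the challenged groups were alike.

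The test of whether the OVA response depended on maternal exposure gave no call for any member by limma, edgeR or DESeq2, 0 members had an unadjusted p under 0.05, and 0% of all genes passed by limma and 2 genes by DESeq2, with 854 at an unadjusted p under 0.05. For Cnot3 the difference between the responses was 0.45 with an interval of -0.49 to 1.38 (adjusted p = 1.0), and it was -0.10 without PM-OVA 1. This count depended on how the shallow libraries were treated. With the 3 of them left out 1 member was called, Cnot3, at 1.32 (adjusted p = 0.0499), when 612 genes were higher and 109 lower over the whole table. That fit kept only PM-OVA 1 and PM-OVA 2 of their group, with 10.15 and 2.4 RPM of Cnot3. With limma's array weights 6 members were called, when 651 genes were higher and 3965 lower. Whether the members' responses differ between maternal groups was thus not settled by these libraries. PM-OVA 1 was the highest of the 4 PM-OVA libraries for 8 of the 10 members.

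Deviations of the members from their group means were compared across libraries. Over 23 libraries Pearson's r among the 45 pairs of members ranged from -0.607 to 0.955 with a median of 0.483. In the 14 saline libraries alone the median was 0.129, but r ranged from -0.913 (Cnot1 and Cnot8) to 0.872 (Cnot1 and Cnot3). Sham 3 and 4 had the lowest Cnot1 of Sham (29.6 and 30.3 RPM) and the highest Cnot8 (58.2 and 59.1 RPM). Their rho with transcript length was -0.282 and -0.427, the lowest of the saline libraries. A link between these was not tested. Leaving out Cnot4 and Cnot8, a choice made after seeing the values, the 28 other pairs had a median of 0.82 over all libraries. In the saline libraries their median was 0.09, with a range of -0.729 to 0.872. These libraries share their depth differences, and Sham-OVA 3 was the lowest of its group for 8 of the 10 members and PM-OVA 4 for 5. Among the other genes tested, those whose log2 values were most like Cnot1 over the 23 libraries were Dip2c (r = 0.996), Ash1l (r = 0.995), Ylpm1 (r = 0.994), Ttbk2 (r = 0.994) and Cdc42bpa (r = 0.993), which share with it the contrast between OVA and saline.

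Among 75 other genes of mRNA decay, from lists compiled by hand, 41 (54.7%) were lower and 10 (13.3%) higher in Sham-OVA against Sham, beside 47.5% and 20.6% of all genes. In PM-OVA against PM 46 (61.3%) were lower and 13 (17.3%) higher, beside 45.2% and 20.1%. Of the 4 other CCR4-NOT subunits and associated proteins, Tnks1bp1 fell from 275 ± 39.0 RPM (SD, n = 7) in Sham to 83.3 ± 16.9 (n = 5) in Sham-OVA, a log2 change of -1.73 (adjusted p = 5.97e-07). Cnot9, the armadillo-repeat subunit that binds microRNA effectors, rose from 34.4 ± 2.0 to 46.7 ± 7.04 RPM, a change of 0.43 (adjusted p = 0.00805), and was at -0.01 (adjusted p = 0.948) in PM-OVA against PM. That difference between maternal groups did not pass the interaction test. Of 6 genes listed as other deadenylases, some of them only relatives of the CCR4 nucleases, 3 were lower in Sham-OVA and 5 in PM-OVA and none higher. The latter count was 3 without PM-OVA 3, without PM-OVA 4 and with TMM scaling. The extremes in Sham-OVA were Angel2 at -1.33 (adjusted p = 0.00456) and Noct, a relative of the CCR4 nucleases, at -0.25 (adjusted p = 0.308).

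Proteins that bring deadenylases to mRNA showed a median log2 change of -1.27 after challenge of Sham and -1.30 after challenge of PM offspring, with 14 of 20 lower and 1 higher in the first and 15 lower and 2 higher in the second. Zfp36l2, which binds AU-rich elements, fell from 176 ± 46.0 to 16.6 ± 7.76 RPM in Sham-OVA, a change of -3.47 (adjusted p = 2.97e-07). Tnrc6a, a scaffold of microRNA silencing, rose from 121 ± 24.5 to 184 ± 78.5 RPM, a change of 0.55 (adjusted p = 0.033). Its groups overlapped, at 84.9 to 154.7 RPM in Sham and 139.6 to 323.7 RPM in Sham-OVA. Of 12 poly(A)-binding proteins and poly(A) polymerases 9 were lower and 2 higher in Sham-OVA, with 8 lower and 3 higher in PM-OVA. Pabpc1, the main cytoplasmic poly(A)-binding protein, fell from 48.6 ± 11.3 to 2.4 ± 1.34 RPM, a change of -4.15 (adjusted p = 2.06e-08), and shares 1052 bases at 97.1% identity with the processed pseudogene Gm16580. Tent5c, a poly(A) polymerase known from plasma cells, rose from 64.4 ± 9.28 to 202 ± 32.5 RPM, a change of 1.64 (adjusted p = 3.87e-07), beside the rise of plasma cell markers given above.

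Steps after deadenylation were mixed. Of 18 genes of decapping and decay from the capped end 12 were lower in each comparison and 2 and 3 were higher, the extremes in Sham-OVA being the helicase Ddx6 at -3.43 (adjusted p = 5.03e-07) and Lsm4, part of the ring that binds shortened tails, at 1.92 (adjusted p = 1.41e-06). Of 15 exosome and Ski complex genes 2 were lower and 4 higher in Sham-OVA, with a median of 0.24, and 5 lower and 5 higher in PM-OVA. The called number of exosome and Ski complex genes depended on the scaling and on 1 library, from 6 as reported to 10 without Sham-OVA 3, 10 with array weights, 10 with TMM scaling, 10 with median-of-ratios scaling, 11 after quantile normalisation and 12 with DESeq2 in Sham-OVA. These counts pool both directions. Of all 16795 genes 7925 were lower and 4221 higher without Sham-OVA 3. The shares of all genes lower and higher were 49.4% and 26.9% with array weights and 35.4% and 31.3% with TMM scaling. They were 38.1% and 29.2% with median-of-ratios scaling, 34.6% and 32.7% after quantile normalisation, and 38.1% and 31.9% with DESeq2. The exosome nuclease Dis3 was at -1.10 (adjusted p = 5.77e-05) and the core subunit Exosc9 at 1.10 (adjusted p = 1.67e-05).

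**Figure D5:**
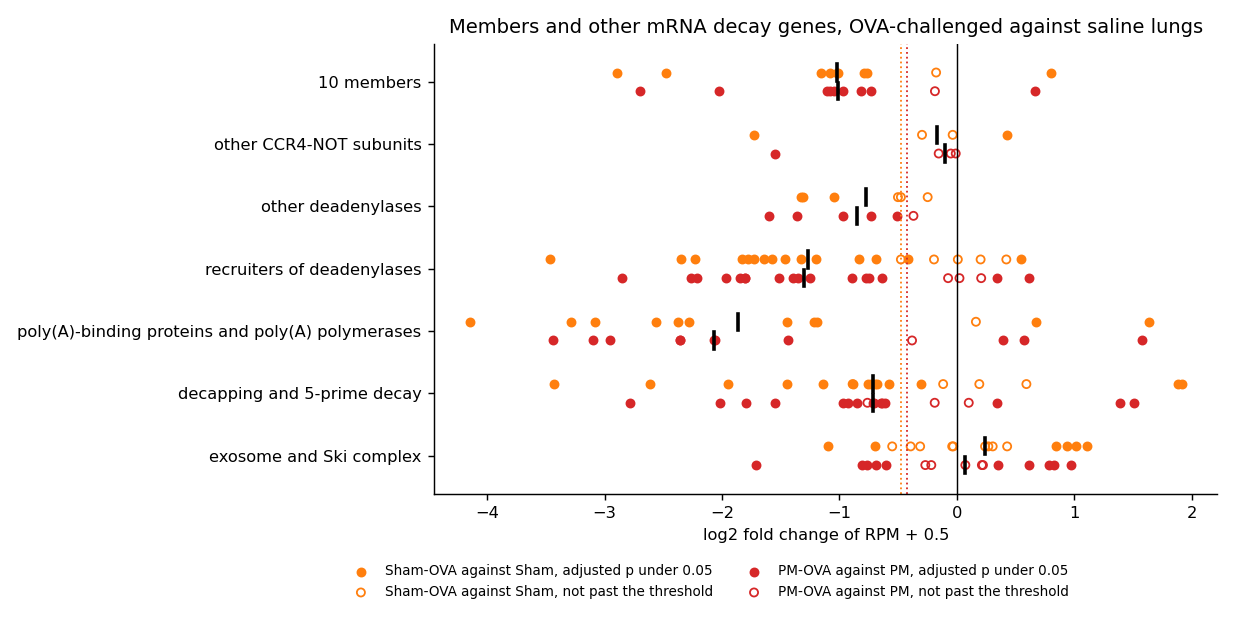
Log2 fold changes of the 10 members and of 75 other mRNA decay genes by list in both OVA comparisons, filled where the adjusted p was under 0.05, with black bars at the list medians and dotted lines at the medians of all genes tested. The members' medians of -1.02 and -1.01 lie left of the dotted lines, as do those of the recruiters and of the poly(A)-binding proteins, while the exosome genes centre right of them. The values shown are not corrected for the trends with transcript length and GC content.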

How the data were processed

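Polyadenylated RNA from 23 offspring lungs had been sequenced, and libraries were grouped by maternal exposure and challenge from the labels. Reads had been trimmed, aligned to GRCm38 (Bowtie2) and counted in SeqMonk by the authors, as their methods state. The gene annotation and the use of strand are not given in the sources used here. The authors deposited one table of RPM values for 35322 genes, whereas the tests had been planned for RPKM. Between 99.994% and 100% of the values of a library were whole multiples of 1 read (within 0.01 read), so reads were recovered. In the shallowest library, Sham-OVA 3, 1 read was worth 0.311 RPM, against at most 0.0688 RPM in saline libraries.

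Values were transformed to log2(RPM + 0.5), so fold changes understate those of low genes. Genes had to reach 0.5 RPM in 4 libraries or more, which left 16795. These were tested with limma 3.58.1 (R 4.3.3), letting the prior variance follow the mean level, within each pair of groups, and over all 4 groups for the interaction. Ratios of members were compared with exact permutation tests, adjusted over 12 tests. Coordinates, lengths and GC content came from the GENCODE annotation of GRCm38 (lengths known for 98.5% of genes tested), and promoter windows from RefSeq (GRCm38.p6) for 8 of the 10 members. Stretches of at least 100 bases at 95% identity or more counted as near-identical.

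The members and the lists were chosen with earlier results of these data known. Named were all members, in each decay list the gene with the largest rise and the one with the largest fall in Sham-OVA relative to Sham, and the 5 genes most correlated with Cnot1. Alternatives were other pseudocounts, filters and scalings, removal of trends with length and GC, other limma options, edgeR 4.0.16 and DESeq2 1.42.0 on recovered reads, a replicate block, a stricter call and leaving out each library. Leaving out the 3 shallow libraries was added after seeing the data. The limma and edgeR fits were tried on simulated data without a length trend, whereas DESeq2 and the permutation tests were not.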

Additional observations from a re-analysis of the deposited data

Results flagged for a closer look

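Among 52 sets of member values or ratios by group, 7 had a highest or lowest library far from the rest by Dixon's test, which chance gives in about 1 in 20 sets. Of these, 5 concerned Sham-OVA 3, the shallowest library. It was lowest for Cnot1 (0.311 RPM), Cnot2 (12.7 RPM), Cnot6l (26.1 RPM), Cnot8 (56.9 RPM) and Pan3 (28.3 RPM). In Sham 3, Cnot4 was high at 40.2 RPM and Cnot6l low at 107 RPM.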

How the results depend on the processing

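Of 619 values of single members under alternatives, 597 kept their direction and side of the threshold, 8 lost the call, 1 gained it and 13 changed sign. The causes were not tested. Under the stricter call by limma 1 of the members was called in Sham-OVA against Sham (0 higher, 1 lower) and 0 in PM-OVA against PM (0 higher, 0 lower), and by DESeq2 3 (1 higher, 2 lower) and 2 (1 higher, 1 lower). The share of all genes passing the stricter call by DESeq2 was not computed. With the length and GC trend removed 5 members were lower in PM-OVA, and Cnot6l was at 0.012. For the interaction 6 members were called with array weights and 1 without the 3 shallow libraries.

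Cnot4 changed sign, without a call, to 0.17, 0.19, 0.27, 0.14 and 0.19 in Sham-OVA, and to 0.20, 0.17, 0.25, 0.15 and 0.23 in PM-OVA, under quantile, median-of-ratios and TMM scaling, removal of the length and GC trend, and DESeq2. Leaving out 1 library in turn, Cnot3 ranged from -0.011 to 0.96 for PM-OVA against Sham-OVA and from -0.10 to 0.87 for the interaction, lowest without PM-OVA 1.

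Leaving out 1 library, the difference in log2 ratio of Cnot6 to Cnot6l ranged from -0.13 to 0.058 (PM-OVA against PM), -0.026 to 0.061 (PM against Sham) and -0.19 to 0.00 (PM-OVA against Sham-OVA). That of Cnot7 to Cnot8 ranged from -1.64 to -1.30, -0.089 to 0.014 and -0.085 to 0.25, in that order. That of Pan2 to Pan3 ranged from -0.11 to 0.006 (PM against Sham) and -0.045 to 0.16 (PM-OVA against Sham-OVA). Without any 1 of the PM-OVA libraries, Cnot7 to Cnot8 had an exact permutation adjusted p of 0.05 in PM-OVA against PM, its unadjusted p of 0.00833 being the smallest that 3 against 7 libraries allow. Without the 3 shallow libraries it was -1.10 (exact permutation adjusted p = 0.167), again with the smallest unadjusted p that 2 against 7 libraries allow (0.0278), so the loss of these calls says nothing about stability, and Pan2 to Pan3 was -0.15 for PM-OVA against Sham-OVA.

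Replicate numbers were not taken to pair the samples. They are the numbers of the sample titles, which for most OVA libraries differ from the numbers in the library names. Pairing by the numbers in the library names was not examined, neither here nor with the replicate block. Deviations of same-numbered libraries correlated at -0.067 to 0.115 (Sham-OVA and Sham), -0.101 to 0.062 (PM-OVA and PM), -0.248 to 0.104 (PM and Sham), and 0.595, 0.22, 0.617 and -0.311 (PM-OVA and Sham-OVA), so not every pair of any comparison passed 0.1. With a replicate block 7 members were lower in Sham-OVA, where 42.4% of all genes were lower, Cnot2 being at -0.82 (adjusted p = 0.0503) by limma. In PM-OVA 8 were lower, where 33.9% of all genes were. With the replicate block Cnot7 to Cnot8 was -1.53 (exact permutation p = 0.0625) in Sham-OVA and -1.39 (exact permutation p = 0.125) in PM-OVA, the smallest p that 5 and 4 pairs allow.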
